A study of Mus musculus with 2 samples.

Results

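Immunoglobulin heavy chain variable (V) genes were described in single cells of popliteal lymph nodes (PLNs), the nodes that drain the hindpaw, of TNF-Tg mice with inflammatory-erosive arthritis. They were taken as every gene whose symbol starts with Ighv, which gave 185 of the 32285 genes listed. The Early library came from male TNF-Tg mice on the C57BL/6 background at 5 to 6 months of age, and the Advanced library from male mice of the same genotype and background older than 8 months. Each library pooled 6 PLNs of 3 mice, and live nucleated cells (Hoechst+, Sytox Green-) were sorted without selecting a lineage and sequenced with 10x Genomics 3′ chemistry, so no wild-type mouse and no repeat of a stage stands beside them. With 1 library per stage no test could be made, and age, stage and library cannot be told apart. Values are unique molecular identifier (UMI) counts, and all intervals are 95% and cover counting error only.

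A heavy chain is built when a developing B cell joins 1 V gene to a D and a J segment with the RAG recombinase, and the joined exon is then transcribed together with a constant gene that sets the antibody class. Each B cell normally expresses a single heavy chain, and plasma cells, which secrete it, carry far more of its RNA than resting B cells do. V genes nearest to the D segments, those of the families Ighv5 and Ighv2, are known to be used more in early B cell development, and Ighv11 and Ighv12 genes are known from B1 cells. The counts hold no junction sequence, so cells that share a V gene are not thereby shown to be a clone, and a clone of 1 mouse cannot be told apart from use shared by the 3 pooled mice.

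The 185 genes spanned 2437 kb of chromosome 12, from 113572927 to 116010093 (mm10, GENCODE M21 annotation of GRCm38), with Ighv5-1 nearest to the D segments and Ighv1-86 farthest from them. They fell into 16 families by the first number of the symbol, and family 1 alone held 93. The annotation called 113 of them V genes, 70 pseudogenes and 2 by a further immunoglobulin label (IG_LV_gene). A UMI was seen for 103 of the 113 V genes, for 22 of the pseudogenes and for 0 of the 2. Those of the 113 without a UMI were Ighv7-2, Ighv11-1, Ighv16-1, Ighv1-16, Ighv1-24, Ighv1-43, Ighv1-62-1, Ighv8-9, Ighv1-71 and Ighv8-13. The pseudogenes together held 59 of the 5562 Ighv UMIs of the Early library and 67 of the 6832 of the Advanced library (1.06% and 0.981%). Of the 125 genes seen, 110 were seen in both libraries, 4 only in Early cells and 11 only in Advanced cells.

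The sequences on which the results turned are shown as the last 300 bases of the V exon, 5′ to 3′ on the minus strand. Ighv1-26 (chr12:114788372-114788671) and Ighv1-76 (chr12:115847881-115848180) led the Advanced cells with at least 20 Jchain UMIs described below, and Ighv1-76 was also first by UMIs in the Early ones. Capitals mark the 45 bases at which they differ, so reads of one could be told from the other. The gene most like Ighv1-26 was Ighv1-18 (V exons 97.4% identical), and 86.1% of the 90-base windows of Ighv1-26 occurred in no other Ighv exon.
Ighv1-26: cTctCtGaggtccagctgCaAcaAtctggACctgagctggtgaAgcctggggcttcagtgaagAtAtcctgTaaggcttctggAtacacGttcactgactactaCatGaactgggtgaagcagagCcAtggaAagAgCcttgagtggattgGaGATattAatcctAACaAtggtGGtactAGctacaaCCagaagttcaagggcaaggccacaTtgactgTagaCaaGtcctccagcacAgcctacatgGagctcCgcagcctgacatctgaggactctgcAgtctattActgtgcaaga
Ighv1-76: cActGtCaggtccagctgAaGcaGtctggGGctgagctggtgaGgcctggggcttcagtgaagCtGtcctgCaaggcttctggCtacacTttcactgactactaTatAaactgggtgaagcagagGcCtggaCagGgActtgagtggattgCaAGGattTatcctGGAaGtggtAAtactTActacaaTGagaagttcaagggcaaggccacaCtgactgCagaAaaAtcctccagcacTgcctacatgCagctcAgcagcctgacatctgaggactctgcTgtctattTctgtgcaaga
Near-identical copies can limit what the counts separate. Why like genes shared the UMIs of a cell, as described next, was not tested. Ighv1-53 (chr12:115158403-115158702) and Ighv1-55 (chr12:115208095-115208394) shared their UMIs in 1 plasma cell, and capitals mark 15 differing bases.
Ighv1-53: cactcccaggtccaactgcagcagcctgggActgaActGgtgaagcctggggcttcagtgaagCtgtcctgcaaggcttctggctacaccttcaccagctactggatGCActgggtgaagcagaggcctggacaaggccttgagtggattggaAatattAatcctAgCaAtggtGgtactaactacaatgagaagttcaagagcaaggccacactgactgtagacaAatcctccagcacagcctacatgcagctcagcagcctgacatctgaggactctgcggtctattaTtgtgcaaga
Ighv1-55: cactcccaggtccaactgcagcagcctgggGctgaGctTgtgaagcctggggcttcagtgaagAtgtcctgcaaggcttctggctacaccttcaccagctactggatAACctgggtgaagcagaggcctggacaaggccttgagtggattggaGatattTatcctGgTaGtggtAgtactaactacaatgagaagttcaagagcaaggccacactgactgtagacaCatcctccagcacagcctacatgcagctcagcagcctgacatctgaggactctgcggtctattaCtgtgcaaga
Ighv1-72 (chr12:115757984-115758283) and Ighv1-62-3 (chr12:115460999-115461298) differed at 3 bases, again in capitals, and likewise shared the UMIs of 1 cell.
Ighv1-72: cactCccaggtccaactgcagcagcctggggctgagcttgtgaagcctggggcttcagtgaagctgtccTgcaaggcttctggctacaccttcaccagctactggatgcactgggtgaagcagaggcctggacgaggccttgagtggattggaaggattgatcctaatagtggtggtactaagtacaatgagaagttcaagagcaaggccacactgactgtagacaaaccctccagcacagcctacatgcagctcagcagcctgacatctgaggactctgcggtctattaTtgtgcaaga
Ighv1-62-3: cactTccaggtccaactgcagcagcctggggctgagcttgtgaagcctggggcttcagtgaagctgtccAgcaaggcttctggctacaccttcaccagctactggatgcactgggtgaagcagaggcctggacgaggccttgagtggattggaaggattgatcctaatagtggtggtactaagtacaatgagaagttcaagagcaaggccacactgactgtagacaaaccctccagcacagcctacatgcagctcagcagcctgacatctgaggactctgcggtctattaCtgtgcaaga
Ighv11-2 (chr12:114048241-114048540), a V gene known from B1 cells, differed from Ighv11-1 at the 4 bases in capitals, and Ighv11-1 had 0 UMIs in both libraries.
Ighv11-2: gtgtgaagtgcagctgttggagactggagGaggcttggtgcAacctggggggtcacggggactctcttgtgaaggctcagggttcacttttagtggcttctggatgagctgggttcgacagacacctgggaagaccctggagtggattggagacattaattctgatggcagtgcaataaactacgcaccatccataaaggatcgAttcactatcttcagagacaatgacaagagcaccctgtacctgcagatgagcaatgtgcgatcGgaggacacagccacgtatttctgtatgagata
For 124 of the 185 genes every 90-base window of the V exon occurred in no other Ighv exon, and for 4 (Ighv1-62-2, Ighv1-71, Ighv1-62-3 and Ighv1-72) fewer than 50% of windows did. How reads that match several copies were counted was not given in the sources used here.

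Leaving out cells with under 200 genes kept 8221 Early cells (median of 6643 UMIs) and 8183 Advanced cells (7837 UMIs). Cells were grouped into classes by clusters and marker genes without using any immunoglobulin gene, and the classes carry the ending "-like". B-cell-like cells numbered 7267 (Early) and 5439 (Advanced), and B precursor-like cells 5 and 91. Cells with at least 20 UMIs of Jchain, the chain that joins IgM and IgA into polymers and a plasma cell gene, are called Jchain-high cells here and were taken out of their clusters. They numbered 44 and 51, of which 17 and 27 lay in the plasma cell-like cluster. In the cycling cluster lay 25 and 19, and in other clusters 2 and 5. Doublets were not removed, and the libraries shared 19 cell barcodes, of which 0 were Jchain-high.

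Ighv RNA was concentrated in very few cells. The Jchain-high cells, 0.535% of Early and 0.623% of Advanced cells, held 29.3% and 39.4% of all Ighv UMIs. Their summed Ighv level was 953 CPM (UMIs per 1e6 UMIs of the class; 907 to 1000) in the Early library and 1337 CPM (1287 to 1389) in the Advanced library, 1.40-fold higher (1.32 to 1.49). The plasma cell-like cluster gave 17 of the 44 Early and 27 of the 51 Advanced cells. Its Jchain-high cells had medians of 81 and 77 Ighv UMIs, and those of the cycling cluster 1 and 2. The 1.40-fold ratio is thus one of a class of differing make-up and not of plasma cells alone. The B-cell-like levels were 67.8 CPM (65.6 to 70.0) and 75.4 CPM (72.9 to 77.9), 1.11-fold higher (1.06 to 1.16). Jchain-high cells therefore lay 14.1-fold (13.3 to 14.9) and 17.7-fold (16.9 to 18.7) above B-cell-like cells of the same library. Relative to the heavy constant genes the order was the other way, with 17.4 and 15.7 Ighv UMIs per 1000 constant gene UMIs in Jchain-high cells and 25.2 and 25.5 in B-cell-like cells.

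**Figure D1:**
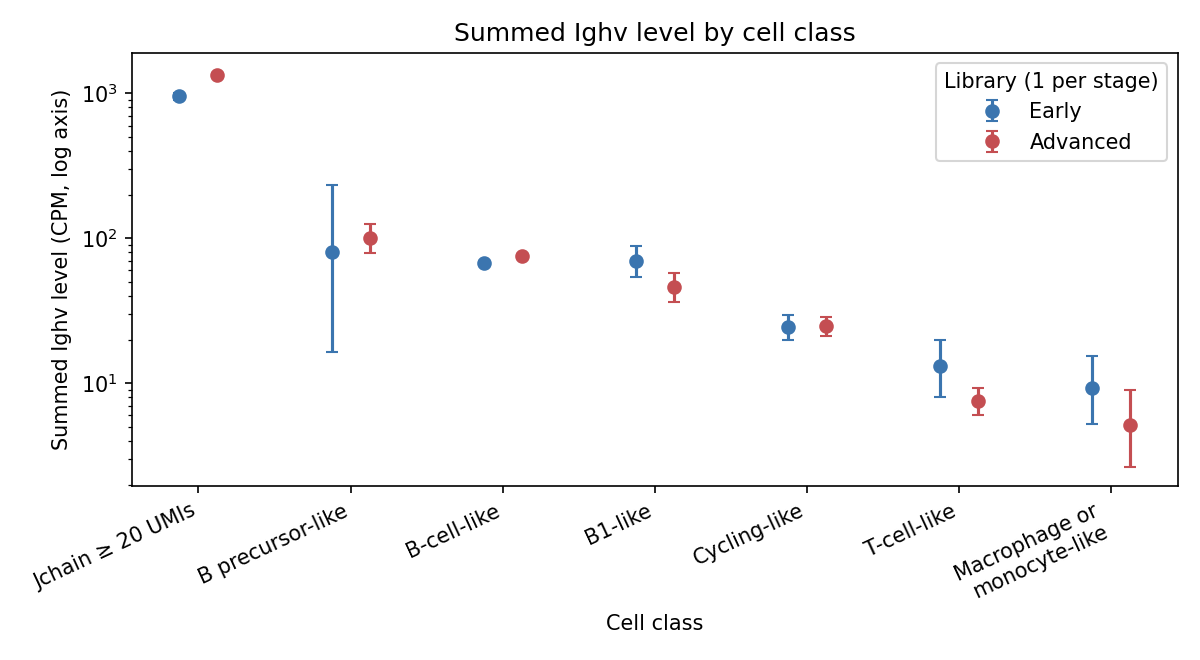
Summed Ighv level (CPM, log axis) in each cell class and library, where points mark the level and bars the exact Poisson 95% intervals of counting error. Jchain-high cells stood at 953 and 1337 CPM, B-cell-like cells at 67.8 and 75.4 CPM and T-cell-like cells at 13.1 and 7.53 CPM.

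Of the other B lineage classes, Advanced B precursor-like cells lay above the B-cell-like level of their library, Advanced B1-like cells and the cycling-like cells of both libraries lay below it, and the interval of Early B1-like cells held it. Advanced B precursor-like cells, defined by the surrogate light chain and recombinase genes, stood at 101 CPM (79.8 to 126). Of their 78 Ighv UMIs 12 lay in 1 cell, and the 5 Early B precursor-like cells held 3. B1-like cells, led by Bhlhe41 and Apoe, stood at 69.8 CPM (54.2 to 88.5) in the Early and 46.1 CPM (36.6 to 57.4) in the Advanced library, a ratio of 0.660 (0.472 to 0.926). Cycling-like cells outside the Jchain-high class stood at 24.3 and 24.8 CPM, and that class was mixed, since 25% of the cells of its cluster had a UMI of the T cell gene Cd3e and 91.4% one of the B cell gene Cd79a. The unnamed cells, 212 and 336 with medians of 1331 and 1114 UMIs, stood at 104 and 102 CPM.

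Cells that do not rearrange heavy chain genes gave the background. T-cell-like cells held 21 Ighv UMIs in 151 Early cells (13.1 CPM, 8.08 to 19.9) and 92 in 1060 Advanced cells (7.53 CPM, 6.07 to 9.23), and macrophage or monocyte-like cells stood at 9.34 and 5.15 CPM. B-cell-like cells therefore lay 5.20-fold (3.39 to 8.40) and 10.0-fold (8.14 to 12.5) above T-cell-like cells for Ighv, against 3.43-fold and 4.31-fold for Ighm and 1.81-fold and 1.52-fold for Ighg2b. A UMI of any Ighv gene was seen in 36.3% and 42.9% of B-cell-like cells (median depths of 6561 and 7365 UMIs) and in 9.27% and 5.94% of T-cell-like cells (10088 and 10779 UMIs). With each cell thinned to 1000 UMIs these shares were 6.66% and 6.95% of B-cell-like cells (0 and 3 shallower cells left out) and 1.32% and 0.566% of T-cell-like cells (0 and 0 left out).

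The Ighv UMIs of T-cell-like cells lay in cells that also carried B cell RNA. The 10 B cell markers had at least 10 UMIs in 29 Early and 162 Advanced T-cell-like cells, and these cells held 19 of the 21 and 77 of the 92 Ighv UMIs. T-cell-like cells without any UMI of those markers held 0 Ighv UMIs in 32 Early cells, which allows a level of up to 12.4 CPM (3 counts), and 1 in 120 Advanced cells (0.930 CPM, 0.024 to 5.18). Over all classes outside the B lineage, 48 Early and 185 Advanced Ighv UMIs were seen (7.74 and 7.20 CPM). The share of them that matched the V gene use of B-cell-like cells was 39.5% (Early) and 67.1% (Advanced), and for Jchain-high cells 30.3% and 35.3%, where 100% would be equal use of every gene. What part free RNA and cell pairs had in these UMIs was not tested.

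Most B-cell-like cells gave too few UMIs to name their V gene. No Ighv UMI was seen in 4627 Early and 3105 Advanced B-cell-like cells, 1 was seen in 1879 and 1607, 2 in 563 and 484, and 5 or more in 9 and 27. The highest cell held 9 UMIs in the Early library (Ighv1-19) and 12 in the Advanced library (Ighv2-3). A V gene was therefore assigned to a cell only where at least 2 Ighv UMIs were seen and at least 80% of them fell to 1 gene, which gave 544 Early and 489 Advanced B-cell-like cells, 71.5% and 67.3% of those with 2 or more UMIs. Among the cells with exactly 2 UMIs these fell to different genes in 138 of 563 (24.5%, 21.0% to 28.3%) and 134 of 484 (27.7%, 23.7% to 31.9%). The V exons of genes seen together in a cell had median identities of 63.5% and 63.6%, and 9 of 209 and 5 of 228 such pairs were at least 95% identical, so few of them were near-copies of each other.

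V gene use in B-cell-like cells was broad at both stages. The assigned cells carried 83 (Early) and 77 genes (Advanced), and at an equal number of 489 cells 81.4 and 77.0. The effective number of V genes, the exponential of the Shannon entropy, which counts genes as if all were used equally, was 56.0 (52.3 to 59.9) and 53.2 (49.7 to 56.9). Of the assigned cells 542 of 544 and 486 of 489 had Ighm or Ighd as their leading constant gene. Within single B-cell-like clusters the effective numbers were close between libraries as well, 46.6 and 45.1 in the largest cluster, led by Crisp3 and Fcer2a, and 37.9 and 36.5 in the next, led by Fcrl5 and Ahr.

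No V gene made up more than 5.51% of the assigned B-cell-like cells in either library. Ighv3-6 led the Early library with 30 of 544 cells (5.51%, 3.75% to 7.78%), followed by Ighv6-3 (25 cells), Ighv1-82 (25), Ighv9-3 (24) and Ighv1-26 (22). In the Advanced library Ighv6-3 and Ighv1-26 led with 25 of 489 cells each (5.11%, 3.34% to 7.45%), followed by Ighv3-6 (20), Ighv1-81 (20) and Ighv1-9 (17). The leading genes came from 4 families, and they lay from position 51 (Ighv9-3) to position 181 (Ighv1-82) among the 185 genes counted from the D segments. Counted by UMIs, Ighv1-26 was first in both libraries, with 184 of 3661 (5.03%) and 179 of 3429 (5.22%).

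**Figure D2:**
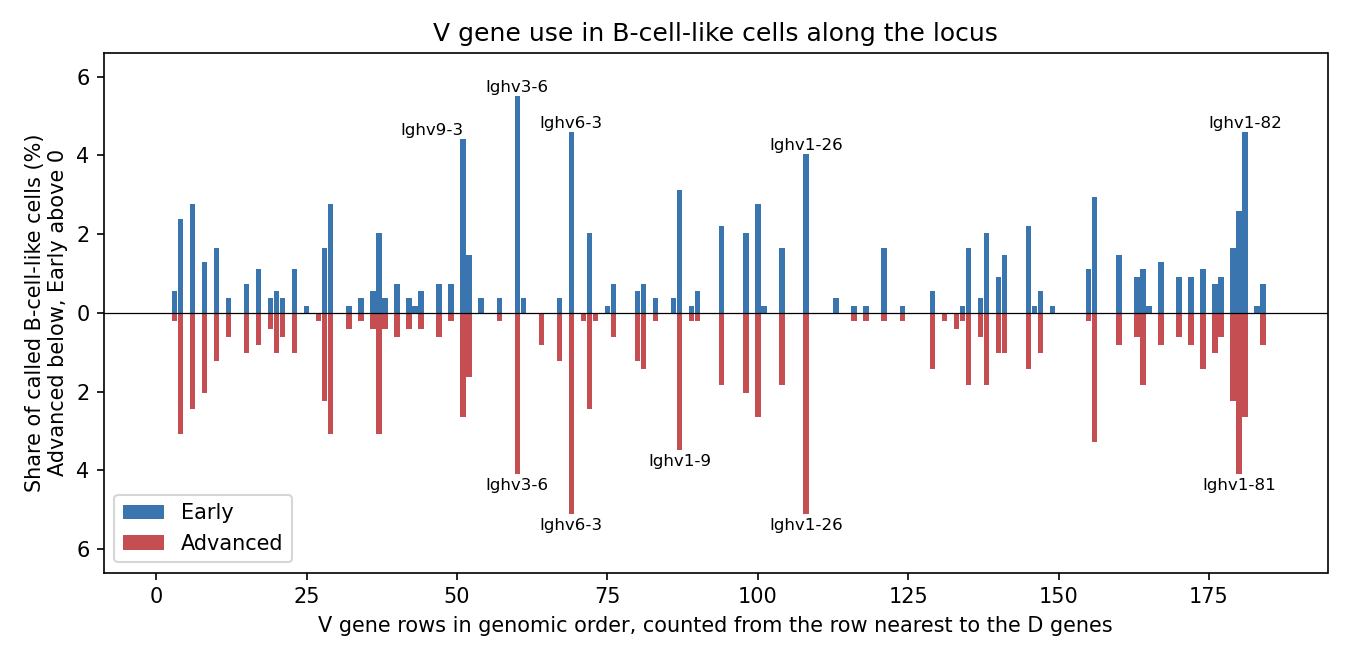
Share of the assigned B-cell-like cells (%) carrying each of the 185 genes, in genomic order from the gene nearest to the D segments, with Early bars above and Advanced bars below the zero line. The tallest bars are Ighv3-6 (5.51%, position 60) in the Early library, and Ighv6-3 (position 69) and Ighv1-26 (position 108) with 5.11% each in the Advanced library.

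Family shares in B-cell-like cells were close between the libraries. Family 1 was carried by 275 of 544 Early cells (50.6%, 46.3% to 54.8%) and 239 of 489 Advanced cells (48.9%, 44.4% to 53.4%), with 93 of the 185 genes in it. Family 5 was carried by 59 and 56 cells (10.8% and 11.5%), family 2 by 39 and 44 (7.17% and 9.0%), family 3 by 36 and 29, family 6 by 36 and 39 and family 9 by 34 and 17 (6.25% and 3.48%). Of the 5 genes nearest to the D segments, Ighv2-2 had 83 Early and 84 Advanced UMIs in B-cell-like cells and Ighv5-2 had 21 and 24. Ighv5-1 had 2 and 0, and Ighv2-1 and Ighv5-3 had 0 in both. At the far end Ighv1-82 had 146 and 114, Ighv1-85 had 31 and 22, Ighv1-84 had 3 and 2, Ighv1-83 had 2 and 0, and Ighv1-86 had 0 and 1. Both ends of the locus thus held V genes in use beside genes with few or no UMIs.

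The stage comparison asked whether any V gene was used more in B-cell-like cells of 1 library. Of 21 genes with at least 10 assigned cells in 1 library, 0 had a ratio of shares whose interval lay wholly beyond 2-fold, and the interval of every ratio held 1. The lowest ratios, Advanced over Early, were those of Ighv1-82 (25 of 544 and 13 of 489 cells, 0.578, 0.272 to 1.17), Ighv9-3 (0.603), Ighv8-8 (0.649), Ighv3-6 (0.742) and Ighv1-15 (0.834). The highest were those of Ighv1-81 (14 and 20 cells, 1.59, 0.763 to 3.40), Ighv2-3 (7 and 10 cells, 1.59), Ighv4-1 (1.52), Ighv1-80 (1.36) and Ighv5-16 (1.36). As levels over all B-cell-like cells, 71 of the 185 genes had a UMI in at least 10 cells of 1 library, and 0 were higher and 0 lower with an interval wholly beyond 2-fold. Over all 13594 genes that met the same minimum, 0.956% were higher and 0.0588% lower, and the median log2 ratio was 0.20 for the 71 and 0.09 for all.

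A weaker rule asked only that the interval leave out a ratio of 1. As levels, 6 of the 71 genes were then higher and 3 lower in the Advanced library, against 28.6% and 7.1% of all 13594 genes, shares that the V genes did not exceed. Counted as shares of Ighv UMIs, 4 of the 71 were higher and 5 lower. On this scale no share of all genes was calculated to set these counts against. Among 71 intervals some can leave out 1 by counting error alone. The intervals also take UMIs of the same cell as separate counts. The genes named next are therefore not shown to differ between stages. Ighv13-2 had 12 UMIs in 10 Early cells and 35 UMIs in 23 Advanced cells, a ratio of 3.11 (1.58 to 6.59). Ighv2-3 had 31 and 66 UMIs, a ratio of 2.27 (1.46 to 3.60), and 12 of the Advanced UMIs lay in 1 cell. Ighv3-8 (2.37, 1.03 to 5.92) and Ighv1-59 (1.80, 1.03 to 3.20) were the others. The share was lower for 5 genes. Ighv1-39 had 69 UMIs in 55 Early cells and 33 UMIs in 32 Advanced cells, a ratio of 0.511 (0.327 to 0.784). It was assigned to 9 and 1 cells, just under the minimum of 10 used above, and the ratio of those shares was 0.124 (0.00282 to 0.892). Ighv11-2 (14 and 1 UMIs, 0.0763, 0.00180 to 0.501), Ighv1-63 (21 and 5 UMIs, 0.254, 0.0749 to 0.693), Ighv5-6 (0.595, 0.364 to 0.955) and Ighv9-3 (129 and 87 UMIs, 0.720, 0.542 to 0.952) were the others. With 1 library a stage, none of these could be set against a spread between mice.

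The share of Ighv UMIs that the libraries had in common was 89.0% for B-cell-like cells over 124 genes, and 33.3% for Jchain-high cells over 52 genes. It was also low in classes with far fewer Ighv UMIs. It was 37.6% in B1-like cells (68 and 80 UMIs), 42% in cycling-like cells (102 and 170) and 34.8% outside the B lineage (48 and 185). Jchain-high cells had 1631 and 2692 Ighv UMIs, concentrated in few cells. A low value was thus not confined to Jchain-high cells, but classes so unlike in UMIs cannot be compared directly.

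**Figure D3:**
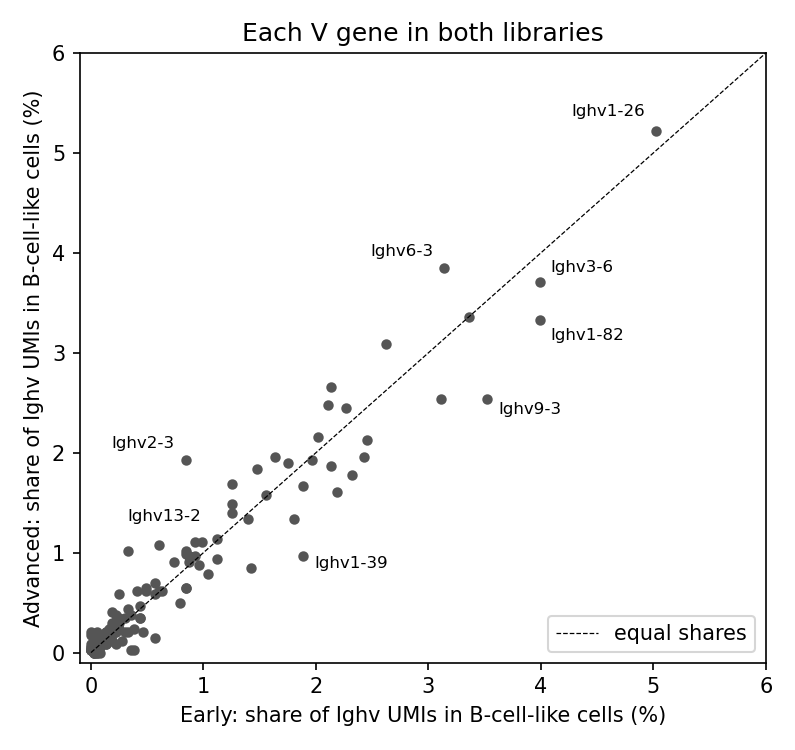
Share of the Ighv UMIs of B-cell-like cells (%) for each V gene, Early on the horizontal and Advanced on the vertical axis, with a dashed line at equal shares. Ighv1-26 is highest on both axes (5.03% and 5.22%). Ighv13-2 and Ighv2-3 lie above the line, and Ighv1-39 and Ighv9-3 lie below it.

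V gene use in Jchain-high cells was set by single cells. A V gene was assigned to 25 of 44 Early and 37 of 51 Advanced cells, which carried 18 and 24 genes, and the effective numbers were 16 (13.1 to 19.6) and 18.4 (14.3 to 23.8). At 25 cells the numbers of genes were 18.0 and 17.4. By assigned cells Ighv1-64 led the Early class with 4 of 25 cells, followed by Ighv2-5, Ighv11-2, Ighv14-4 and Ighv1-76 with 2 each, and all other genes had 1. In the Advanced class Ighv1-26 led with 7 of 37, followed by Ighv1-76 (4), Ighv1-19 (3) and Ighv1-80 (3), and all other genes had 1. The highest cell held 276 of 1631 Early Ighv UMIs (16.9%, 15.1% to 18.8%) and 242 of 2692 Advanced Ighv UMIs (8.99%, 7.94% to 10.1%). The 5 highest cells held 54.4% and 37.0%, and 50% of the UMIs lay in 5 and 8 cells. Cells of the plasma cell-like cluster had medians of 81 and 77 Ighv UMIs, those of the cycling cluster 1 and 2, and 11 Early and 2 Advanced Jchain-high cells had none.

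Almost every Jchain-high cell with many Ighv UMIs carried a single V gene. At least 10 Ighv UMIs were seen in 20 Early and 32 Advanced Jchain-high cells, of which 16 and 27 lay in the plasma cell-like cluster. In 18 of the 20 and 29 of the 32, 1 gene held at least 90%. Led by their Ighv UMIs, the 10 highest Early cells carried Ighv1-76 (274 UMIs, with Ighg2b), Ighv1-85 (258, Ighg2b), Ighv6-6 (134, Ighm), Ighv14-4 (128, Ighm), Ighv6-3 (90, Ighm), Ighv1-26 (88, Ighg2c), Ighv5-4 (87, Ighg3), Ighv1-53 (61, Ighm), Ighv10-3 (81, Igha) and Ighv5-6 (73, Ighg3). No gene occurred more than once among them. The 10 highest Advanced cells carried Ighv9-2 (241 UMIs, with Ighg1), Ighv1-9 (240, Ighm), Ighv1-76 (197, Ighg2c), Ighv1-82 (164, Ighg2b), Ighv1-76 (148, Ighg2b), Ighv1-26 (146, Ighg2b), Ighv1-76 (135, Ighg3), Ighv1-26 (130, Ighg2b), Ighv1-56 (128, Ighg2c) and Ighv1-26 (116, Ighg2b). Here Ighv1-26 and Ighv1-76 each occurred 3 times. A further Advanced cell of the plasma cell-like cluster fell below the Jchain minimum with 16 Jchain UMIs, and it carried Ighv1-76 (145 UMIs) with Ighg2b.

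**Figure D4:**
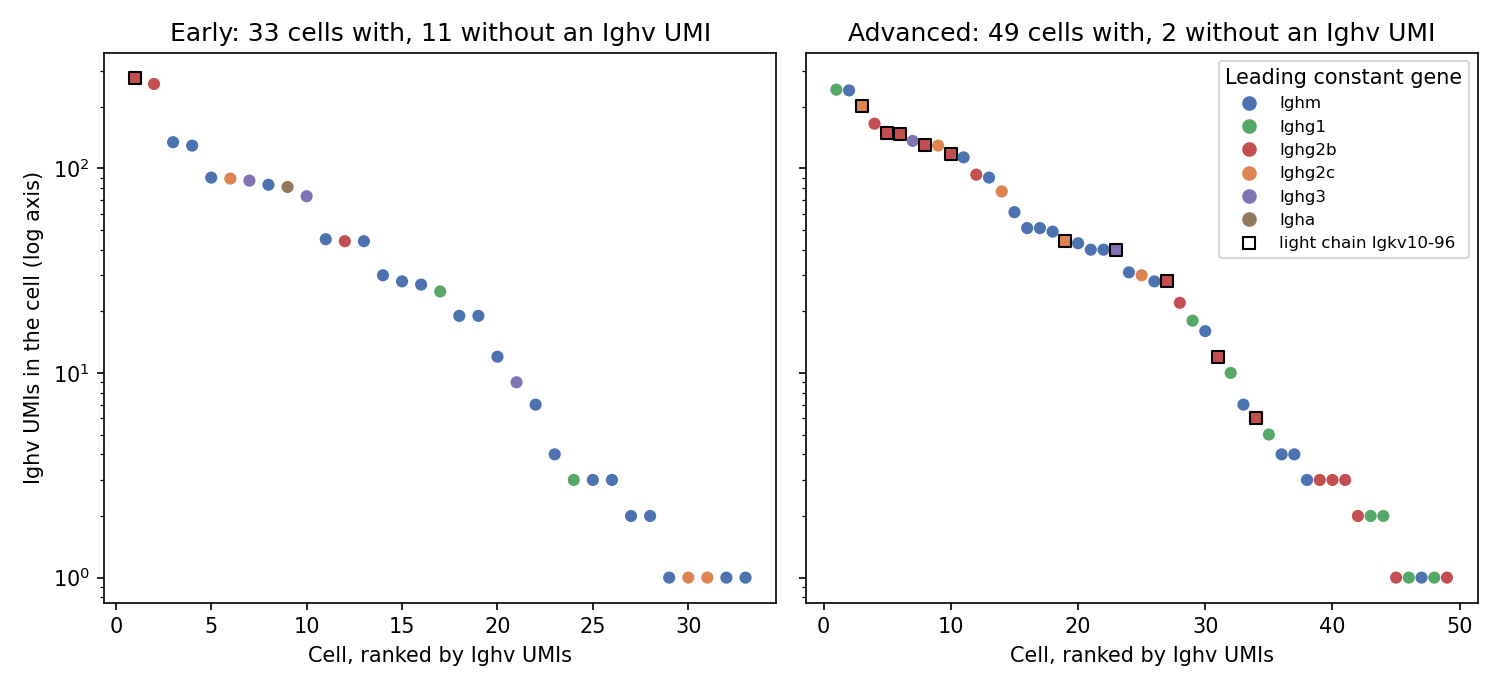
Ighv UMIs of each Jchain-high cell with at least 1 (log axis), ranked within the Early (left) and the Advanced library (right), coloured by the leading heavy constant gene, with black-edged squares for cells whose leading light chain V gene was Igkv10-96. The highest cells hold 276 and 242 Ighv UMIs, and the squares are 1 Early and 10 Advanced cells, all led by IgG genes.

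The few cells with more than 1 V gene fell into pairs of like and of unlike genes. The Early cell led by Ighv1-53 held 61 of its UMIs and 22 of Ighv1-55 (V exons 95.1% identical), another held 12 of Ighv1-72 and 7 of Ighv1-62-3 (99.0%), and an Advanced cell held 36 of Ighv1-75 and 15 of Ighv1-66 (93.4%). In each of these cells Ighm held nearly all of the constant gene UMIs. The other Advanced cells with both genes over 10 UMIs had genes that were less alike. One held 75 UMIs of Ighv1-76 and 35 of Ighv2-3 (58.4% identical) with 9760 UMIs of Ighm and 5310 of Ighg2b, among 114402 UMIs in all. The other held 61 of Ighv9-1 and 16 of Ighv11-2 (57.3%) with 8827 of Ighg2c and 1415 of Ighg2b. Of the 6 plasma cells with at least 100 Ighv UMIs led by Ighv1-76, counting the cell below the Jchain minimum, 5 also held 1 to 3 UMIs of Ighv1-66, whose V exon is 92.1% identical.

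The constant gene sets the class of the antibody that a V gene is joined to. Among Jchain-high cells with at least 10 Ighv UMIs, IgG genes led in 7 of 20 Early cells (35.0%, 15.4% to 59.2%) and 19 of 32 Advanced cells (59.4%, 40.6% to 76.3%), Ighm in 12 and 13, and Igha in 1 and 0. As levels over all Jchain-high cells, Ighg2b stood at 11733 and 31387 CPM, Ighg2c at 2429 and 18042, Ighg1 at 1032 and 3454 and Ighg3 at 10839 and 4975. Ighm stood at 25125 and 27356 CPM, Igha at 3682 and 36.8, Ighd at 38.6 and 45.2, and Ighe had 2 UMIs in each library. The intervals of the IgG shares overlapped, and each level rested on as few cells as the V genes did.

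Ighv1-26 and Ighv1-76, both of family 1, were carried by IgG cells of both libraries. They were picked out as leading genes of these same cells. Ighv1-26 was carried by 7 of 37 assigned Jchain-high cells in the Advanced library (18.9%, 7.96% to 35.2%) and 1 of 25 in the Early library, and Ighv1-76 by 4 and 2. Among IgG cells with at least 10 Ighv UMIs, one of these genes led in 3 of 7 Early (42.9%, 9.90% to 81.6%) and 10 of 19 Advanced cells (52.6%, 28.9% to 75.6%). Among IgM cells it was 0 of 12 and 1 of 13, and that 1 was the cell of 114402 UMIs with UMIs of 2 V genes. Of the Ighv UMIs of the class, Ighv1-26 held 5.40% (4.35% to 6.61%) among Early and 18.3% (16.8% to 19.8%) among Advanced cells, and Ighv1-76 held 19.6% and 21.7%, of which 274 of 319 Early UMIs lay in 1 cell. In B-cell-like cells the shares were 5.03% and 5.22% for Ighv1-26 and 1.75% and 1.90% for Ighv1-76.

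The light chain V gene of these cells was shared as well. Igkv10-96, a kappa V gene, led the light chain UMIs of 7 of 7 Advanced Jchain-high cells carrying Ighv1-26, of which 5 had Ighg2b, 1 Ighg2c and 1 Ighg3. Not all of the 7 lay in the plasma cell-like cluster. Among them was 1 unnamed cell of 1995 UMIs in all and 1 cell of a B-cell-like cluster with 6 Ighv UMIs. The Early cell carrying Ighv1-26 had Iglv1, a lambda V gene. Of the cells carrying Ighv1-76, Igkv10-96 led in 1 of 2 Early cells (Ighg2b) and 3 of 4 Advanced cells (Ighg2b in 2 and Ighg2c in 1), and in the Advanced plasma cell below the Jchain minimum. Of those 3 Advanced cells 1 was an unnamed cell of 1858 UMIs in all, with 2 UMIs of Igkv10-96. Whether free RNA gave the UMIs of the unnamed cells was not tested. Outside the Jchain-high class the pair of Ighv1-76 and Igkv10-96 was seen in 1 Advanced B1-like cell with Ighg2c and 1 Advanced unnamed cell with Ighg2b. The pair of Ighv1-26 and Igkv10-96 was seen in 1 Advanced cycling-like cell with Ighg2b and 1 Early B1-like cell with Ighm. It was seen in 0 of the 22 Early and 0 of the 25 Advanced B-cell-like cells assigned to Ighv1-26. Igkv10-96 led in only 115 of 7267 and 103 of 5439 B-cell-like cells. A count of 0 among 22 and 25 therefore does not set the cells assigned to Ighv1-26 apart from other B-cell-like cells.

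Over all Jchain-high cells with at least 10 Ighv UMIs, Igkv10-96 led in 1 of 7 Early IgG cells (14.3%, 0.361% to 57.9%) and 9 of 19 Advanced IgG cells (47.4%, 24.4% to 71.1%). It led in 0 of 12 Early and 0 of 13 Advanced IgM cells, which allows shares of up to 26.5% and 24.7%. The remaining Advanced cell assigned to Ighv1-76 had Ighg3 and the light chain gene Igkv17-127. These pairs were picked out by their values, and whether cells that share a pair descend from 1 B cell was not tested.

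A few other pairs occurred in more than 1 cell. Ighv11-2 with Igkv14-126 was carried by 2 Early Jchain-high cells (44 and 27 Ighv UMIs), both with Ighm, and Ighv1-64 with Igkv8-24 by 3 Early cells with Ighm. Ighv2-5 with Igkv12-44 was carried by 2 Early Jchain-high cells with Ighm (28 and 3 Ighv UMIs). Ighv1-80 with Igkv4-55 was carried by 2 Advanced cells with Ighm (61 and 50 UMIs of Ighv1-80). Ighv1-19 with Igkv14-111 was carried by 3 Advanced cells, 2 with Ighg1 and 1 with Ighg2b, and Ighv1-85 with Igkv3-12 by 1 Early Jchain-high and 3 Early B1-like cells, all 4 with Ighg2b. Where both the heavy and the light V gene held at least 80% of their UMIs, cells that shared their pair with another cell of the class made up 4 of 13 Early (30.8%, 9.09% to 61.4%) and 12 of 17 Advanced Jchain-high cells (70.6%, 44.0% to 89.7%). In B-cell-like cells these were 2 of 46 (4.35%, 0.531% to 14.8%) and 4 of 57 (7.02%, 1.95% to 17.0%).

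Family 1 was carried by more of the Advanced Jchain-high cells. It was assigned to 11 of 25 Early cells (44.0%, 24.4% to 65.1%) and 31 of 37 Advanced cells (83.8%, 68.0% to 93.8%), beside 50.6% and 48.9% of B-cell-like cells. Without the cells of Ighv1-26 and Ighv1-76 it was 8 of 22 (36.4%, 17.2% to 59.3%) and 20 of 26 (76.9%, 56.4% to 91.0%). The intervals take each cell as a separate draw, although some of the remaining cells also shared a V and light chain pair. The class differed in make-up too, since the cycling cluster gave 25 of the 44 Early and 19 of the 51 Advanced Jchain-high cells. The difference is therefore not shown to be one of stage. Cycling-like cells, which were not in the Jchain-high class, had 10 of 20 Early (50%) and 21 of 27 Advanced cells (77.8%, 57.7% to 91.4%), and B1-like cells 8 of 13 and 8 of 15. The cells other than family 1 in the Advanced Jchain-high class included 2 of families 5 and 2 (5.41%, 0.661% to 18.2%), against 5 of 25 in the Early library (20%, 6.83% to 40.7%).

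**Figure D5:**
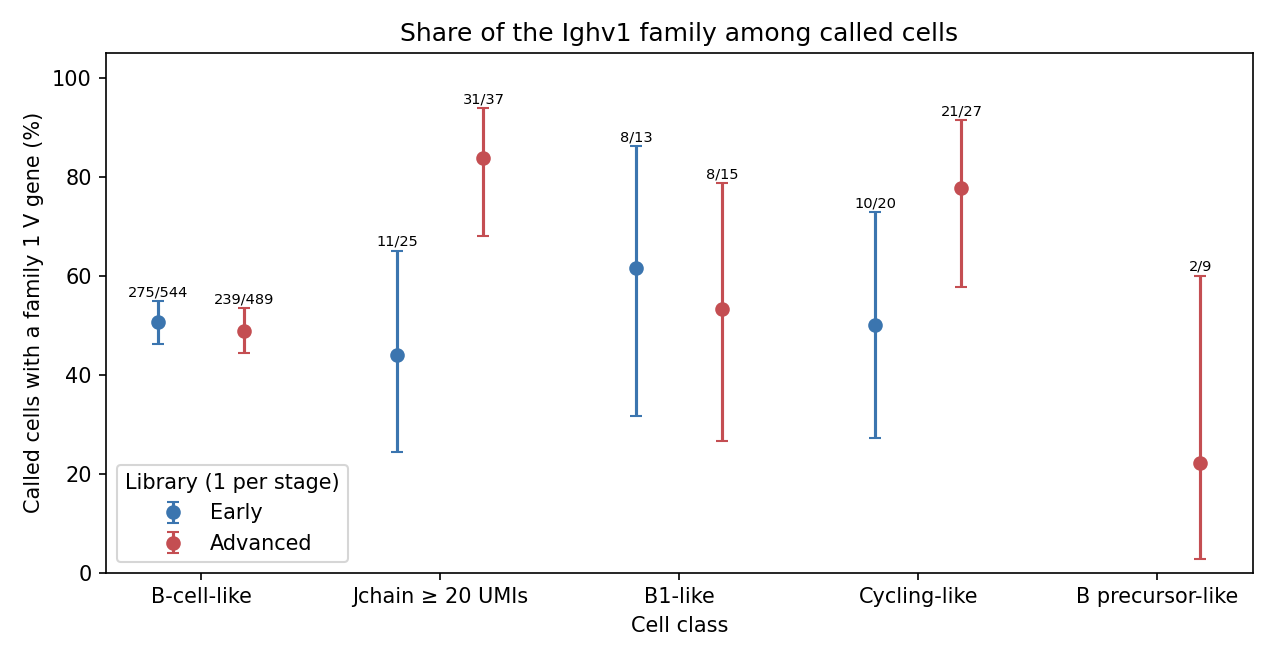
Share of assigned cells (%) carrying a family 1 V gene in each class and library, with bars for exact Clopper-Pearson 95% intervals and the counts above them. Jchain-high cells stand at 44.0% and 83.8% and B-cell-like cells at 50.6% and 48.9%, and no Early B precursor-like cell was assigned.

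B precursor-like cells were next compared with B-cell-like cells for use of V genes near the D segments. Among the markers that named the class, the recombinase genes Rag1 and Rag2 stood at 310 and 44.0 CPM in the Advanced library and Dntt, an enzyme that adds bases to the joint, at 215 CPM, against 0.967, 0.0439 and 1.49 CPM in B-cell-like cells. A V gene was assigned to 9 of the 91 cells, and these carried 9 different genes. Families 5 and 2 were carried by 2 of the 9 (22.2%, 2.81% to 60.0%), Ighv5-6 and Ighv5-17, against 20.4% of B-cell-like cells (17.0% to 24.3%). Counted by UMIs, these families held 13 of 78 (16.7%) in precursors and 17.8% in B-cell-like cells. The 62 genes nearest to the D segments held 32 of the 78 UMIs (41.0%) against 33.0%, and the 61 farthest 21 (26.9%) against 35.9%. The leading genes were Ighv1-23 (9 UMIs, 8 of them in 1 cell), Ighv14-2 (7 UMIs in 5 cells), Ighv7-3 (6), Ighv6-3 (6) and Ighv1-81 (4), and 1 cell held 12 of the 78 UMIs. A difference from B-cell-like cells was not detectable at this depth.

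The V genes known from B1 cells were rare in B-cell-like cells, and larger shares of Advanced B1-like and Early Jchain-high cells held them, each from few cells. Ighv11-1, Ighv11-2, Ighv12-3 and Ighv7-1 were seen in 2 of 41 Early (4.88%, 0.596% to 16.5%) and 5 of 51 Advanced (9.80%, 3.26% to 21.4%) B1-like cells with an Ighv UMI. In B-cell-like cells the counts were 28 of 2640 (1.06%) and 18 of 2334 (0.771%), with intervals of 0.706% to 1.53% and 0.458% to 1.22%. Of Jchain-high cells with an Ighv UMI, 3 of 33 Early (9.09%, 1.92% to 24.3%) and 1 of 49 Advanced cells (2.04%, 0.0517% to 10.9%) held them, and a gene of this list was assigned to 3 of 25 and 0 of 37. In B1-like cells Ighv12-3 had 2 Early and 5 Advanced UMIs, Ighv11-2 had 1 and 2, and Ighv7-1 and Ighv11-1 had 0. In the whole libraries Ighv11-2 had 87 Early and 20 Advanced UMIs, of which 71 and 16 lay in the plasma cells already described. Ighv12-3 had 27 and 13, of which 19 lay in 1 Early IgM cell with the light chain gene Igkv3-7. The assigned B1-like cells were led in the Early library by Ighv1-85 (4 of 13), all with Ighg2b, and in the Advanced library by Ighv3-6, Ighv1-55 and Ighv1-61 (2 of 15 each).

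The assigned cycling-like cells were led by Ighv5-16, Ighv9-3, Ighv1-18 and Ighv1-64 (2 of 20 each) in the Early library and by Ighv1-19, Ighv1-75 and Ighv1-81 (3 of 27 each) in the Advanced library. IgG genes led in 7 of the 20 and 12 of the 27. Somatic mutation of the V exon lowers the match of its reads to the reference, and how many reads were lost in that way cannot be read from these counts.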

How the data were processed

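Single-cell RNA was measured in 2 libraries, 1 per stage. The deposited values are counts, UMIs per gene and cell barcode, which the authors had made with Cell Ranger against mm10. The file header names version 6.0.1, and the submitters' processing notes name 3.1 and 3.1.0, with Seurat 4.0.3. This difference was not resolved. The libraries held 67610110 Early and 83148059 Advanced UMIs in 8242 and 8201 barcodes, of which 21 and 18 had under 200 genes and were left out. PCR duplicates had been collapsed by UMI, and counting intervals do not cover differences between mice.

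Cells were integrated and clustered in Seurat 5.3.0 (R 4.3.3) with 2000 variable features free of immunoglobulin genes, 30 dimensions and resolution 0.5, which gave 23 clusters. Clusters were named from marker lists by how many markers stood among the 10 leading genes, given 3 markers each detected in 10% of the cells. Counts were summed in Python 3.11.15 (numpy 2.4.6, scipy 1.17.1, pandas 2.3.3). Levels have exact Poisson, shares exact Clopper-Pearson and ratios exact conditional intervals, and intervals of effective numbers come from the variance of the entropy over cells. Levels are CPM, thinning drew 1000 UMIs per cell, and a count of 0 was set against a floor of 3 counts.

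A V gene was assigned where a cell had at least 2 Ighv UMIs and 80% in 1 gene, and the leading light chain V gene was the one with the most UMIs. Genes were named by a rule: the 5 leading V genes of a class, the leading V gene of the 10 highest Jchain-high cells, the 5 most extreme ratios each way among genes with at least 10 assigned cells in 1 library, and lists of B1-linked genes, genes at the ends of the locus, constant genes and enzymes. Other V and light chain pairs, and the V genes whose UMI share ratio had an interval without 1, were named after their values were seen. The members and lists were chosen with earlier results of these data known. One gene of the enzyme list is not reported here. The calculations were checked on simulated data. Alternatives included other Jchain and UMI minimums, other classes and totals, cells with T or myeloid marker UMIs left out, and pseudogenes left out. Sequences were read from GENCODE M21 on GRCm38. No junction sequence and no V promoter was used here.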

Additional observations from a re-analysis of the deposited data

How the results depend on the processing

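Alternatives moved 18 of 68 recomputed values outside the interval of the reported value. The other 50 stayed within it or, for the 8 counts of genes apart, were unchanged. Direction was checked only for the level ratio of B-cell-like cells, and 0 of its 7 alternatives reversed it. No paired analysis was possible because each stage had 1 pooled library. The level ratio of B-cell-like cells ran from 1.10 to 1.24, and 1.24 came from subtracting the T-cell-like level. The effective number in B-cell-like cells was 62.1 Early and 62.8 Advanced when 1 UMI sufficed, 5.00 and 14.4 when 5 were required, which kept few cells, and 64.4 and 66.2 from summed UMIs, so its Early to Advanced order depended on the setting. In Jchain-high cells the order depended on the setting as well. The effective number there was 20.7 Early and 19.3 Advanced at a Jchain minimum of 10 UMIs, and 16.1 and 15.7 at 50. It was 16.2 and 15.2 when 5 Ighv UMIs were required, and 14.0 and 14.2 from summed UMIs. The share of the highest cell was 19.0% in the Early library once the highest cell was left out, and 10.2% in the Advanced library at a Jchain minimum of 50 UMIs. The T-cell-like level was 1.09 and 1.40 CPM when classes came from marker UMIs, and 20.7 and 13.5 when totals left out immunoglobulin, ribosomal and mitochondrial genes. In T-cell-like cells without a B cell marker UMI, an alternative chosen after seeing the data, it was 0 and 0.930 CPM. The share of families 5 and 2 in Advanced precursors was 0% (0 of 2 cells) when precursors were taken by surrogate light chain UMIs. Genes apart between stages numbered 0 under all 8 alternatives, but not all of these could have given another count. A minimum of 20 assigned cells kept only genes already compared, so it could give only 0. Requiring 5 Ighv UMIs left at most 9 Early and 27 Advanced B-cell-like cells, so hardly any gene could reach the minimum of 10 assigned cells.

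Depth limits these values. Few B-cell-like cells had 2 Ighv UMIs, so single V genes rested on at most 30 assigned cells per library. The rule asked for an interval wholly beyond 2-fold, and the intervals were wide. For Ighv6-3, with 25 assigned cells in each library, the interval ran from 0.613 to 2.02. The UMI share ratio of Ighv13-2 was 3.11 (1.58 to 6.59), and its interval was not wholly beyond 2-fold. A count of 0 genes is therefore not evidence that no V gene changed by more than 2-fold. Jchain-high values rested on 44 and 51 cells, and leaving out 1 cell moved shares of UMIs.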
